A study of Mus musculus with 9 samples.

Results

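The 10 genes of arginine, nitric oxide and polyamine metabolism described here were followed by name through a lung RNA-seq count table: Slc7a2, Ass1, Arg1, Arg2, Odc1, Nos1, Nos2, Nos3, Ddah1 and Ddah2. All 10 were among the 21983 gene symbols of the table, and 9 had enough counts to be tested, the exception being Nos1. The libraries came from lungs of BALB/c mice, an inbred laboratory strain, and fell into 3 groups of 3 libraries. BSYQF lungs came from mice with a chronic asthma model that were dosed by mouth with Bu-Shen-Yi-Qi formula, a mixture of Chinese medicinal herbs, at 20 g of raw herbs per kg from day 14 and for 6 weeks. Asthma lungs came from mice with the same model that received saline by mouth from day 14. Control lungs came from normal mice, also given saline by mouth from day 14. The labels used here do not state how the model was induced, the sex and age of the mice, or whether each library was a different mouse. The spread behind each p-value is therefore that between libraries of the same group, estimated over all 3 groups together. Part of it may be technical. The stated aim of the series is to predict which genes the formula regulates in airway remodelling.

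Arginine enters cells through cationic amino acid carriers, or is rebuilt from citrulline by argininosuccinate synthase and lyase. Arginases split it into urea and ornithine, from which cells make polyamines, used in growth, and proline, used in collagen. Nitric oxide synthases turn the same arginine into nitric oxide, which relaxes smooth muscle through soluble guanylate cyclase, and the synthases are inhibited by methylated arginines that the DDAH enzymes break down. In the mouse lung, arginase 1 is a known marker of alternatively activated macrophages in allergic inflammation.

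Each library held 16286385 to 22819199 gene counts, and 14739 genes were tested in 1 edgeR quasi-likelihood fit of the 3 groups. Levels are in CPM, which divide a gene's counts by the size of its library, and each change is a log2 fold change ± SE whose p-value was adjusted over all 14739 genes. A gene was called at an adjusted p under 0.05. Lung identity was plain in every library, with summed levels of 20543 to 31841 CPM for 6 alveolar type 2 cell markers in BSYQF lungs, 20709.7 to 27874 CPM in asthma lungs and 21777 to 25479 CPM in control lungs. On the first principal component of log2 CPM, which held 51.6% of the variance, asthma replicate 3 (1.77) lay apart from asthma replicates 1 and 2 (51.9 and 76.0), and BSYQF replicate 1 (40.5) lay apart from BSYQF replicates 2 and 3 (1.20 and -19.6), while the control libraries lay between -56.7 and -43.2.

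In asthma lungs, against control lungs, 3 of the 9 tested genes were called higher: the arginine carrier gene Slc7a2, the arginine synthesis gene Ass1 and the arginase gene Arg1. None was called lower. Among all 14739 genes 12.7% were called in that comparison, made up of 8.23% higher and 4.45% lower. The same 3 genes were the ones with an unadjusted p under 0.05, as 34.1% of all genes had, and the ones whose asthma libraries all lay above all control libraries. That pattern was found in 22% of all genes, and 40.4% had groups that did not overlap in either direction. The median log2 fold change was 0.39 over the 9 genes and 0.02 over all genes. The calls were lost when certain libraries were left out: in fits without control replicate 1, 2 or 3, or without asthma replicate 1 or 2, 0 of the 9 were called, and without BSYQF replicate 2 Slc7a2 was lost and 2 were called. With limma voom Ass1 alone was called, and Slc7a2 (adjusted p = 0.0511) and Arg1 were not.

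**Figure D1:**
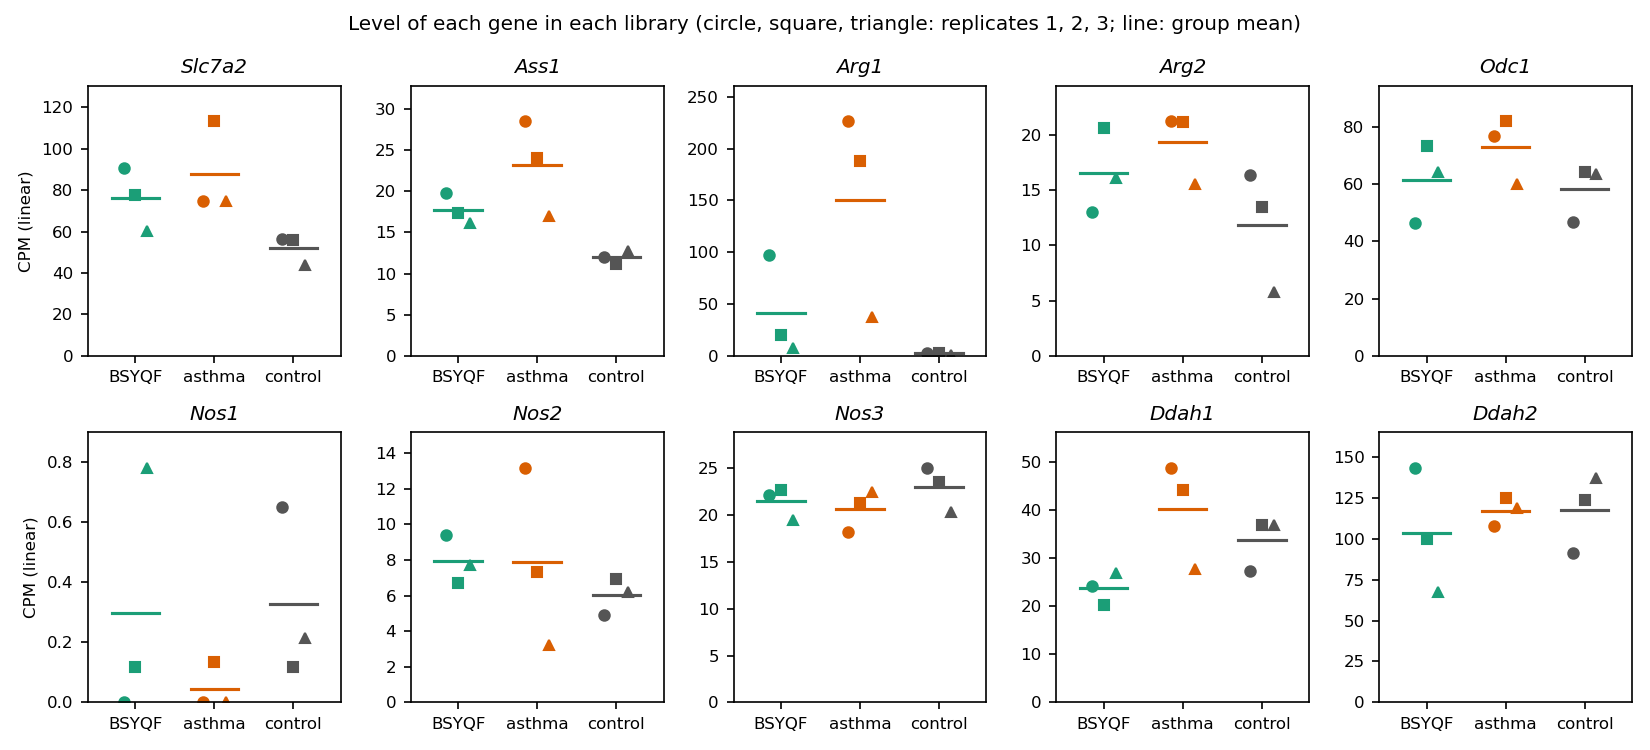
Level of each of the 10 genes in each library, in CPM on a linear axis starting at 0, with BSYQF, asthma and control libraries side by side, symbols for replicates 1 to 3 and a line at the group mean. Arg1 reached 97.2 CPM in BSYQF lungs and 226 CPM in asthma lungs, against at most 3.19 CPM in control lungs, while Nos3 lay between 18.2 and 25.1 CPM in all 9 libraries.

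Slc7a2 encodes a cationic amino acid carrier that brings arginine into cells, and lies on chr8:40862396-40922308, plus strand (mm10, GENCODE vM21). It had 90.5, 77.7 and 60.2 CPM in BSYQF lungs, 74.8, 113 and 74.7 CPM in asthma lungs and 56.5, 56.0 and 44.0 CPM in control lungs. Every asthma and every BSYQF library was above every control library, and the asthma and BSYQF libraries overlapped. Slc7a2 rose in asthma lungs against control lungs by 0.75 ± 0.21 on the log2 scale (edgeR, adjusted p = 0.0429). In BSYQF lungs it was at -0.20 ± 0.21 against asthma lungs (95% interval -0.65 to 0.25, adjusted p = 0.757) and at 0.55 ± 0.21 against control lungs (95% interval 0.09 to 1.001, adjusted p = 0.233), neither of which was called. Slc7a1, the other carrier of this family with the smallest p-value among the transport genes, was at 0.45 ± 0.21 in asthma against control (adjusted p = 0.154).

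Ass1 encodes argininosuccinate synthase, which joins citrulline and aspartate on the way back to arginine, and lies on chr2:31470207-31520672, plus strand. Its levels were 19.8, 17.4 and 16.1 CPM in BSYQF lungs, 28.5, 23.99 and 17.03 CPM in asthma lungs and 11.99, 11.2 and 12.8 CPM in control lungs. The control libraries were the lowest, with no overlap with either other group, and the lowest asthma library lay within the BSYQF range. Ass1 rose in asthma lungs against control lungs by 0.95 ± 0.21 on the log2 scale (edgeR, adjusted p = 0.0216). It was at -0.38 ± 0.21 in BSYQF against asthma lungs (95% interval -0.83 to 0.07, adjusted p = 0.630) and at 0.57 ± 0.21 in BSYQF against control lungs (95% interval 0.11 to 1.02, adjusted p = 0.220). Asl, which encodes the next enzyme of the pathway, was at 0.27 ± 0.14 in asthma against control (adjusted p = 0.188).

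Arg1 encodes the cytosolic arginase, and lies on chr10:24915221-24927484, minus strand. It had 1606, 353 and 150 counts in BSYQF lungs, 4003, 2792 and 836 counts in asthma lungs and 59, 54 and 16 counts in control lungs. Scaled by library size this came to 97.2, 20.5 and 7.80 CPM in BSYQF lungs, 226, 187.6 and 37.5 CPM in asthma lungs and 3.19, 3.16 and 0.851 CPM in control lungs. Every asthma and BSYQF library was above every control library, asthma replicate 3 was far below its 2 group mates, and BSYQF replicate 1 was far above its own and above that asthma library.

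Arg1 averaged 41.8 ± 48.4 CPM in BSYQF lungs, 150.5 ± 99.8 CPM in asthma lungs and 2.40 ± 1.34 CPM in control lungs (SD, n = 3 each). It rose in asthma lungs against control lungs by 5.97 ± 1.152 on the log2 scale, a 62.8-fold change (95% interval of the log2 change 3.36 to 8.59, edgeR adjusted p = 0.0195), a call that limma voom did not make (adjusted p = 0.0509). In BSYQF against asthma lungs it was at -1.85 ± 0.92 (95% interval -3.94 to 0.24, adjusted p = 0.627), a difference within the spread of the libraries. In BSYQF against control lungs it was at 4.12 ± 1.08 (95% interval 1.67 to 6.58) and was not called by edgeR (adjusted p = 0.108), whereas DESeq2 called it (4.11, adjusted p = 0.00401). Without BSYQF replicate 1 the difference from asthma lungs was -3.41 (adjusted p = 0.280) and the difference from control lungs was 2.55.

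The authors' deposited table for asthma against control lists Arg1 at a log2 fold change of 5.95 with an adjusted p of 1.79e-09. The authors' deposited table for BSYQF against control lists it at 4.11 with an adjusted p of 0.00442. It is not in the authors' deposited table for BSYQF against asthma, and none of the other 9 genes is in any of the 3 tables, which keep only changes past 1 on the log2 scale in either direction with a p-value under 0.05.

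Arginase 1 is made by alternatively activated macrophages, so the summed level of 7 markers of that state (Retnla, Chil3, Mrc1, Mgl2, Clec10a, Ccl17 and Ccl24) is given beside it. It was 9150.3, 1462 and 740.9 CPM in BSYQF lungs, 5298, 8505 and 2713 CPM in asthma lungs and 259.9, 156.4 and 151.998 CPM in control lungs, with none of the 7 at 0 in any library. Retnla and Chil3 make up most of this sum in BSYQF and asthma lungs, so it says little about the other markers. Retnla averaged 2056 CPM in BSYQF and 4041 CPM in asthma lungs, and Chil3 1570 and 1240 CPM. Mrc1, the next highest, averaged 118 and 167 CPM. Asthma replicate 3 was the lowest asthma library and BSYQF replicate 1 the highest BSYQF library for this marker sum, as for Arg1. The same libraries stood apart on the first principal component of all tested genes, so this match is not particular to these markers. BSYQF replicate 1 had the highest marker sum of all libraries but less Arg1 than asthma replicates 1 and 2. Retnla (6.66 ± 1.11, edgeR adjusted p = 0.0108) and Mrc1 (1.64 ± 0.28, adjusted p = 0.0100) were called higher in asthma against control, and the other 5 were not called, with adjusted p-values of 0.0505 to 0.0765. Of 6 interstitial macrophage markers 5 were called higher in asthma against control, where 8.23% of all genes were called higher. The median log2 fold change over the 6 was 1.98. C1qa rose by 1.99 ± 0.26 (edgeR, adjusted p = 0.00436) and Ms4a7 by 2.69 ± 0.25 (adjusted p = 0.00238), whereas Apoe, the most abundant of the 6, was at -0.10 ± 0.19. Their summed levels were 1410 to 1954 CPM in BSYQF lungs, 1237 to 1317 CPM in asthma lungs and 869 to 1088 CPM in control lungs, with none of the 6 at 0. Apoe makes up most of these sums, with means of 1214.8, 749.6 and 805.6 CPM in BSYQF, asthma and control lungs. In BSYQF against asthma it was the 1 of the 6 above 0 (0.70 ± 0.19, edgeR adjusted p = 0.450). The median log2 fold change over the 6 was -0.24 there, and none was called. In bulk tissue, more cells of a type and more RNA per cell cannot be told apart, and the part of these cells in the Arg1 result was not tested.

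**Figure D2:**
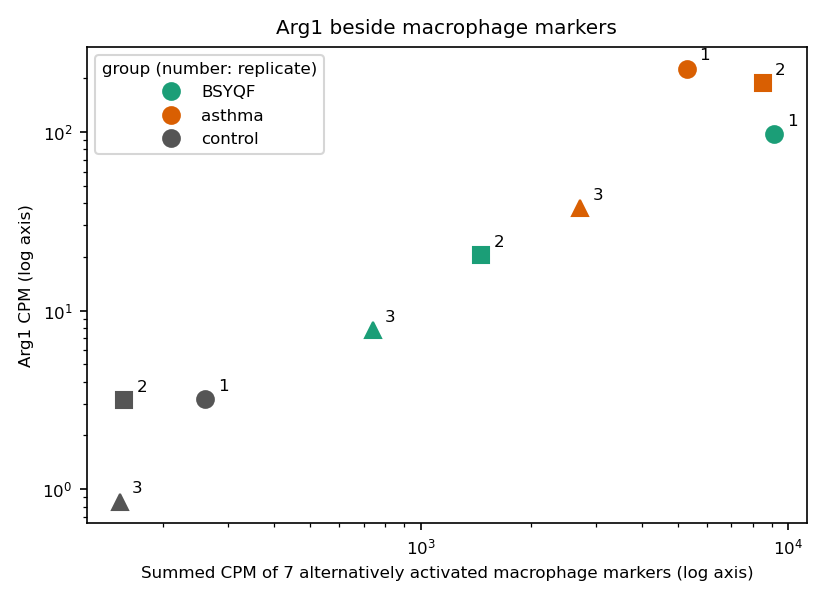
Arg1 level in CPM against the summed CPM of 7 alternatively activated macrophage markers, both on log axes, 1 point per library, with the replicate number beside each point. The 3 control libraries sit at the lower left, with at most 3.19 CPM of Arg1 and 259.9 CPM of markers, and the 6 asthma and BSYQF libraries are spread above them on both axes. Retnla and Chil3 make up most of the marker sum in asthma and BSYQF lungs.

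Arg2 encodes the mitochondrial arginase, and lies on chr12:79130777-79156301, plus strand. It had 13.0, 20.6 and 16.1 CPM in BSYQF lungs, 21.2, 21.2 and 15.5 CPM in asthma lungs and 16.3, 13.5 and 5.80 CPM in control lungs. The 3 groups overlapped, control replicate 3 being the lowest of all. The log2 fold change was 0.70 ± 0.33 in asthma against control (95% interval -0.03 to 1.43, edgeR adjusted p = 0.160), -0.22 ± 0.33 in BSYQF against asthma and 0.48 ± 0.33 in BSYQF against control, and none was called. Its exons overlap those of Vti1b on the other strand, and since the strand setting of the counting is not given, reads of the 2 genes may not have been told apart.

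Odc1 encodes ornithine decarboxylase, which turns ornithine into the polyamine putrescine, and lies on chr12:17544794-17551505, plus strand. It had 46.6, 73.2 and 64.3 CPM in BSYQF lungs, 76.6, 81.9 and 60.1 CPM in asthma lungs and 46.7, 64.1 and 63.6 CPM in control lungs. The ranges of the 3 groups overlapped. Odc1 was at 0.33 ± 0.20 in asthma against control (95% interval -0.11 to 0.76, edgeR adjusted p = 0.267), at -0.25 ± 0.20 in BSYQF against asthma and at 0.08 ± 0.20 in BSYQF against control, none of which was called.

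Of the 3 nitric oxide synthase genes, none was called in any comparison. Nos2, the inducible synthase of activated macrophages and epithelium on chr11:78920787-78960254, plus strand, had 9.38, 6.68 and 7.70 CPM in BSYQF lungs, 13.2, 7.32 and 3.23 CPM in asthma lungs and 4.92, 6.96 and 6.22 CPM in control lungs. The asthma libraries held both the highest and the lowest value of all 9. Nos2 was at 0.39 ± 0.42 in asthma against control (95% interval -0.53 to 1.30, edgeR adjusted p = 0.535), at 0.01 ± 0.41 in BSYQF against asthma (95% interval -0.90 to 0.91) and at 0.39 ± 0.42 in BSYQF against control. For asthma against control the interval also holds changes of more than 1 on the log2 scale.

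Nos3, the endothelial synthase on chr5:24364810-24384474, plus strand, had 22.2, 22.7 and 19.5 CPM in BSYQF lungs, 18.2, 21.3 and 22.5 CPM in asthma lungs and 25.1, 23.5 and 20.4 CPM in control lungs. The groups overlapped and the range over all 9 libraries was narrow. Nos3 was at -0.15 ± 0.16 in asthma against control (95% interval -0.51 to 0.20, edgeR adjusted p = 0.527), at 0.05 ± 0.16 in BSYQF against asthma and at -0.10 ± 0.16 in BSYQF against control. Its exons overlap those of Atg9b on the other strand, with the same limit as for Arg2.

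Nos1, the neuronal synthase on chr5:117781032-117958840, plus strand, had 0, 2 and 15 counts in BSYQF lungs, 0, 2 and 0 counts in asthma lungs and 12, 2 and 4 counts in control lungs. Only 3 libraries were above 3 counts, which corresponds to 0.134 to 0.202 CPM, and the gene was below the filter of the test. Low counts in this table may come from how reads were assigned, since Sftpb, a surfactant gene, was at 7 to 24 counts where Sftpc was at 238614 to 429543. Beside these counts, 6 adipocyte markers summed to 61.8, 127 and 323.7 CPM in BSYQF lungs, 2.89, 2.49 and 15.3 CPM in asthma lungs and 354.1, 122.1 and 66.6 CPM in control lungs, with 3, 3 and 1 of the 6 at 0 in the asthma libraries. Likewise, 6 cardiac muscle markers summed to 392.4, 521.2 and 1271 CPM in BSYQF lungs, 115.8, 112.4 and 210.4 CPM in asthma lungs and 474.1, 396.0 and 895.8 CPM in control lungs. In both lists 5 of 6 markers were called lower in asthma against control, where 4.45% of all genes were called lower. The part of these markers in the Nos1 counts was not tested.

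Ddah1 encodes dimethylarginine dimethylaminohydrolase 1, which breaks down asymmetric dimethylarginine, an inhibitor of the nitric oxide synthases, and lies on chr3:145758675-145894277, plus strand. It had 24.2, 20.3 and 26.9 CPM in BSYQF lungs, 48.8, 44.2 and 27.6 CPM in asthma lungs and 27.3, 36.96 and 36.86 CPM in control lungs. All 3 BSYQF libraries were below all 6 others, although the highest BSYQF library and the lowest asthma and control libraries were close. Ddah1 was at -0.76 ± 0.22 in BSYQF against asthma (95% interval -1.25 to -0.26, unadjusted p = 0.00607, edgeR adjusted p = 0.495), the 180th smallest p-value of that comparison, and was not called. It was at -0.50 ± 0.22 in BSYQF against control (95% interval -0.99 to -0.01, adjusted p = 0.306) and at 0.25 ± 0.22 in asthma against control (adjusted p = 0.439).

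Ddah2, the related enzyme on chr17:35059035-35062095, plus strand, had 143, 99.95 and 67.7 CPM in BSYQF lungs, 107.8, 125 and 118 CPM in asthma lungs and 91.1, 123 and 137 CPM in control lungs. The BSYQF libraries held both the highest and the lowest value, and the groups overlapped. Its log2 fold change was -0.00 ± 0.24 in asthma against control (95% interval -0.54 to 0.53, edgeR adjusted p = 0.996), -0.18 ± 0.24 in BSYQF against asthma and -0.18 ± 0.24 in BSYQF against control.

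In BSYQF against asthma lungs, edgeR, DESeq2 and limma voom each called 0 of the 9 genes, and 1 of the 9, Ddah1, had an unadjusted p under 0.05. Among all genes 0.00678% were called by edgeR, which was 1 gene, and 7.94% had an unadjusted p under 0.05. Ddah1 was also the 1 gene of the 9 whose groups did not overlap, lower in BSYQF. Over all genes 9.75% had groups that did not overlap, made up of 4.76% lower and 4.99% higher in BSYQF lungs. The median log2 fold change was -0.22 over the 9 genes and -0.00 over all genes.

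In BSYQF against control lungs, edgeR and limma voom each called 0 of the 9 genes and DESeq2 called 1, Arg1, where 1.67% of all genes were called by edgeR, made up of 1.63% higher and 0.0407% lower. An unadjusted p under 0.05 was found for 4 of the 9, Slc7a2, Ass1, Arg1 and Ddah1, and for 15.8% of all genes. The groups did not overlap for the same 4, of which 3 were higher in BSYQF lungs and Ddah1 was lower, while 24.8% of all genes did not overlap, made up of 13% higher and 11.8% lower. Both comparisons share the BSYQF libraries, and the comparisons with control share the control libraries, so the values of the 3 comparisons are not independent.

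**Figure D3:**
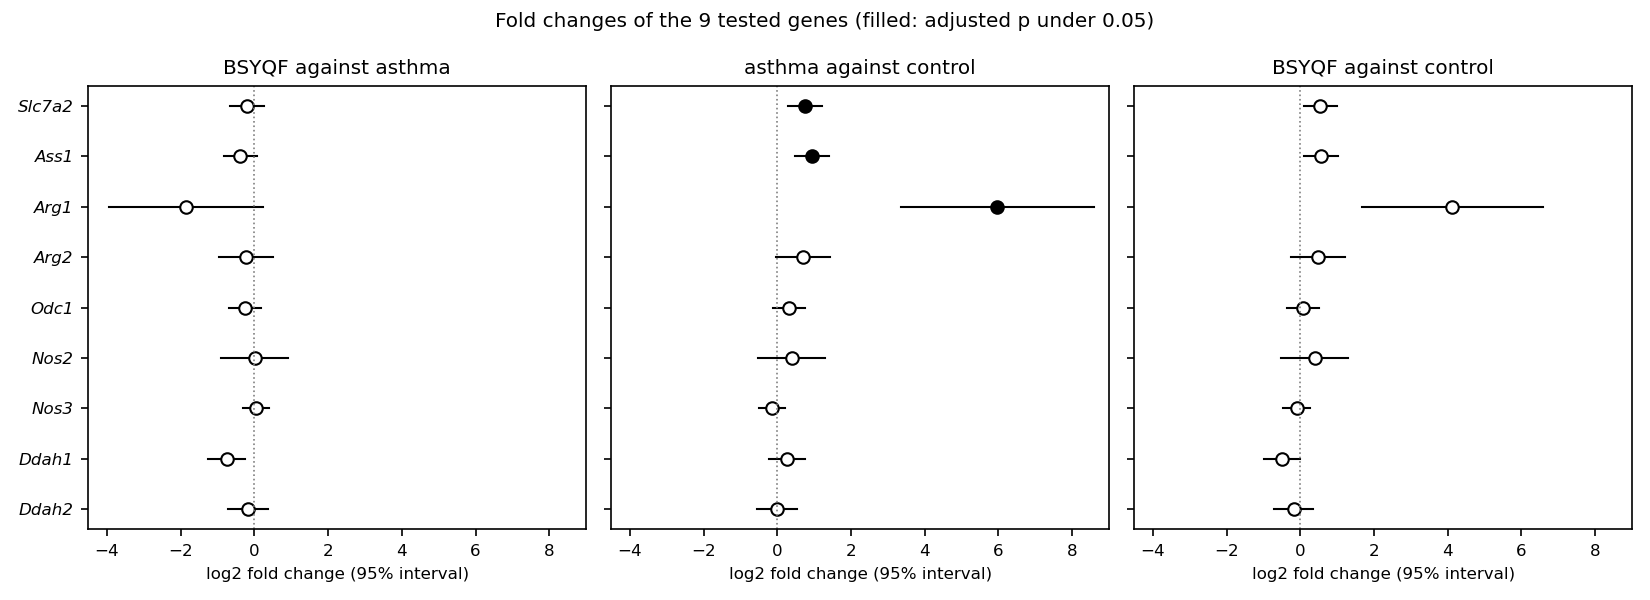
Log2 fold change with its 95% interval for the 9 tested genes in each of the 3 comparisons, with filled symbols at an adjusted p under 0.05. Slc7a2, Ass1 and Arg1 are filled in asthma against control and no gene is filled in BSYQF against asthma or BSYQF against control; the Arg1 interval, 3.36 to 8.59 in asthma against control, is the widest.

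Compared per kb of exon, which allows levels of different genes to be set side by side, Arg1 changed place the most among the 10 genes from group to group. In BSYQF lungs Ddah2 was first at 65.1 ± 23.8 CPM per kb, followed by Arg1 at 18.8 ± 21.7, Odc1 at 18.0 ± 3.98, Arg2 at 11.6 ± 2.66, Slc7a2 at 8.34 ± 1.66, Ass1 at 7.36 ± 0.773, Ddah1 at 5.97 ± 0.842 and Nos3 at 5.19 ± 0.414 (SD, n = 3). Each of these neighbours overlapped the next in its library values, and Nos2 (1.80 ± 0.309) and Nos1 lay below them without overlap. In asthma lungs Ddah2 at 73.5 ± 5.49 and Arg1 at 67.6 ± 44.8 CPM per kb were followed by Odc1 at 21.4 ± 3.33, all overlapping their neighbour, and then, without overlap, by Arg2 at 13.5 ± 2.28, Ddah1 at 10.1 ± 2.79, Ass1 at 9.60 ± 2.40 and Slc7a2 at 9.59 ± 2.43, which overlapped one another in turn. Nos3 at 4.999 ± 0.5298, Nos2 at 1.79 ± 1.13 and Nos1 came after them in the asthma lungs, each without overlap with the gene before it.

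In control lungs Arg1 was the last but 1, at 1.08 ± 0.602 CPM per kb, overlapping Nos2 at 1.37 ± 0.235. Ddah2 was first at 73.6 ± 14.9 CPM per kb and Odc1 came after it at 17.1 ± 2.91, each apart from the next gene. Ddah1 at 8.46 ± 1.40, Arg2 at 8.30 ± 3.81, Slc7a2 at 5.71 ± 0.770, Nos3 at 5.56 ± 0.579 and Ass1 at 4.96 ± 0.330 followed, and each overlapped the next. Nos2 lay below Ass1 without overlap, and Nos1 was the lowest of the 10 in every group.

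As a description of the balance between the 2 enzyme families that share arginine, Arg1 made up 82.7%, 39.0% and 23.7% of arginase transcripts per kb in BSYQF lungs, 87.2%, 85.0% and 60.7% in asthma lungs and 11.1%, 13.1% and 8.60% in control lungs. Every asthma and BSYQF library was above every control library. The ratio of the summed arginase level (Arg1 and Arg2) to the summed nitric oxide synthase level (Nos1, Nos2 and Nos3), both per kb, was 7.04, 3.36 and 2.26 in BSYQF lungs, 15.8, 14.5 and 4.49 in asthma lungs and 1.78, 1.49 and 0.698 in control lungs. No BSYQF or asthma library was as low as a control library, and the lowest asthma library was within the BSYQF range. Nos3 was the largest share of the synthase transcripts in every library, with 71.6%, 78.3% and 72.2% in BSYQF lungs, 59.6%, 75.5% and 88.1% in asthma lungs and 83.8%, 78.2% and 77.5% in control lungs. Transcript ratios do not measure enzyme activity.

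**Figure D4:**
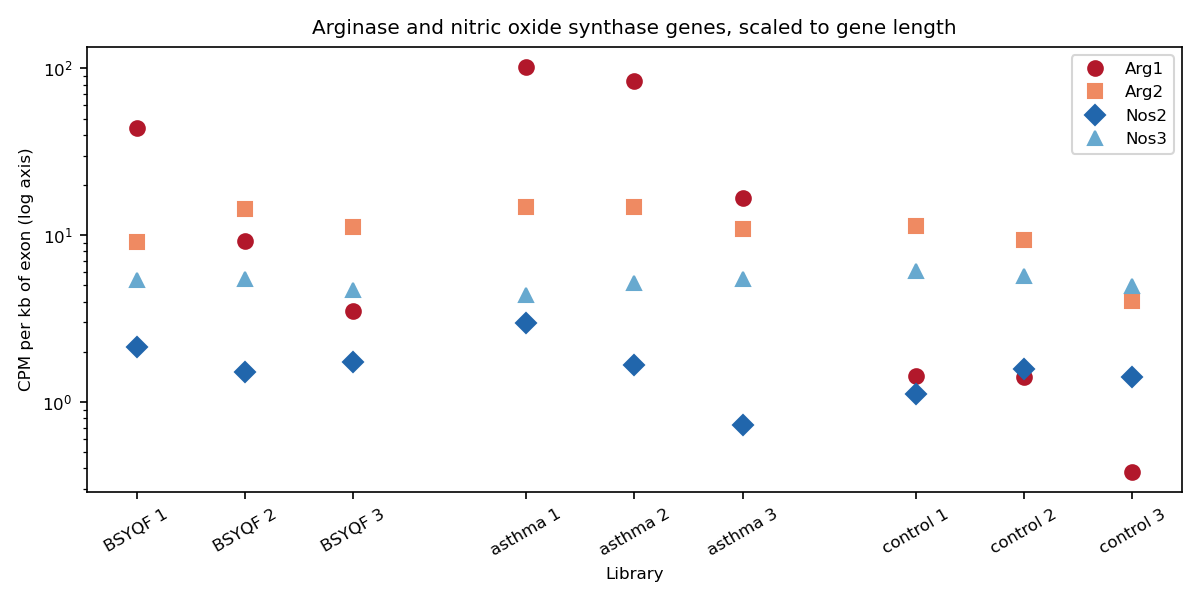
Arginase and nitric oxide synthase transcripts in each library, in CPM per kb of exon on a log axis, with BSYQF libraries first, then asthma and control libraries. Arg1 lies between 3.50 and 101.6 CPM per kb in the BSYQF and asthma libraries and at or below 1.43 in the control libraries, while Nos3 stays between 4.41 and 6.07.

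Over the 9 libraries the log2 CPM of Arg1 ran closest to that of Ass1 among the tested genes of the 10 (Pearson r = 0.932) and next to Slc7a2 (r = 0.906), while Slc7a2 and Ass1 had r = 0.768. These values are descriptions, since libraries of a group share a condition. Searching 14319 named genes, the patterns most like that of Arg1 over the 9 libraries were those of Gadd45g (r = 0.981), Snx8 (r = 0.981) and Slc37a2 (r = 0.980). For Ass1 they were Pdia4 (r = 0.990), Tuba1c (r = 0.988) and Spp1 (r = 0.987), and for Slc7a2 they included Flvcr1 (r = 0.985) and Cort (r = 0.961). Arg2 was most like Il1r2 (r = 0.987), Odc1 most like Exosc9 (r = 0.970), Nos2 most like Mtbp (r = 0.939), Nos3 most like Bcar3 (r = 0.903), Ddah1 most like Kif2a (r = 0.963) and Ddah2 most like Klre1 (r = 0.939). These are the highest values of a search over 14319 genes with only 9 libraries. Every tested gene of the 10, called or not, reached 0.903 or above, so these values too are descriptions only.

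A wider list of 66 genes of the same pathways was followed in the same fit, and 57 of them were tested. In asthma against control lungs 9 were called higher and 6 lower, against 8.23% higher and 4.45% lower over all genes, and the median log2 fold change of the 57 was 0.22. Between BSYQF and asthma lungs 0 of the 57 were called by edgeR, DESeq2 or limma voom, with 5 at an unadjusted p under 0.05, where 7.94% of all genes had such a p. In BSYQF against control 0 were called by edgeR or limma voom, with 12 at an unadjusted p under 0.05, where 15.8% of all genes had such a p, and DESeq2 called 2, Pde5a and Aldh18a1. With limma voom 8 of the 57 were called in asthma against control, and among the genes it lost were Srm, Aldh18a1, Pycr1, Gch1, Nostrin and Prkg1 (adjusted p of 0.0505 to 0.0559). In fits without 1 library, 0 to 28 of the 57 were called in asthma against control: 2, 0 and 0 without control replicates 1, 2 and 3, 0, 0 and 28 without asthma replicates 1, 2 and 3, and 18, 7 and 16 without BSYQF replicates 1, 2 and 3.

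Among genes listed under other fates of arginine and ornithine, the route to proline being 1 of these, 4 of 7 tested were called higher in asthma lungs. None was called lower, against 8.23% higher and 4.45% lower over all genes. Pycr1, whose enzyme makes proline in the last step of its synthesis, had 5.69, 1.86 and 4.79 CPM in BSYQF lungs, 9.56, 8.94 and 3.54 CPM in asthma lungs and 1.51, 0.760 and 1.81 CPM in control lungs. Its libraries did not overlap between asthma and control, and it rose there by 2.42 ± 0.53 on the log2 scale (edgeR, adjusted p = 0.0221). Aldh18a1, which encodes pyrroline-5-carboxylate synthase, had 20.7, 17.6 and 20.7 CPM in BSYQF lungs, 35.3, 33.4 and 13.4 CPM in asthma lungs and 9.35, 10.1 and 9.95 CPM in control lungs. The asthma and BSYQF libraries were all above the control libraries, with asthma replicate 3 the lowest of the 6, and Aldh18a1 rose in asthma against control by 1.48 ± 0.31 (edgeR, adjusted p = 0.0182). Oat, which encodes ornithine aminotransferase, rose as well (0.46 ± 0.13, edgeR adjusted p = 0.0467). Set against asthma lungs, BSYQF lungs gave -0.83 ± 0.49 for Pycr1, -0.48 ± 0.30 for Aldh18a1 and -0.38 ± 0.13 for Oat, and none was called (edgeR adjusted p of 0.579 to 0.650).

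The promoter windows of Ass1, Aldh18a1 and Pycr1 are shown, each 250 bases before to 50 after the RefSeq start on GRCm38.p6. These are 3 of the genes on the routes to arginine and to proline that were called higher in asthma lungs. Of the 10 genes, 5 had a RefSeq promoter entry (Ass1, Odc1, Nos1, Ddah1 and Ddah2). The motifs were searched on both strands and are in capitals: the E-box CACGTG, the GC box GGGCGG, printed as CCGCCC where it lies on the other strand, and TGATGNAA, a motif known from genes of the amino acid response. The windows are on chr2:31470020-31470319 (plus) for Ass1, chr19:40588414-40588713 (minus) for Aldh18a1 and chr11:120643699-120643998 (minus) for Pycr1, and are written 5′ to 3′ along the gene.
Ass1: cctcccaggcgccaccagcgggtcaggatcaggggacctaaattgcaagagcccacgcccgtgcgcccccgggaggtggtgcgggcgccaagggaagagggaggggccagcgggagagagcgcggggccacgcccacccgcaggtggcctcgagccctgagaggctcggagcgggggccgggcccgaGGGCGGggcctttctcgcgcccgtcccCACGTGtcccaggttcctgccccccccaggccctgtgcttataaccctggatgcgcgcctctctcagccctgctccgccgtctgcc
Aldh18a1: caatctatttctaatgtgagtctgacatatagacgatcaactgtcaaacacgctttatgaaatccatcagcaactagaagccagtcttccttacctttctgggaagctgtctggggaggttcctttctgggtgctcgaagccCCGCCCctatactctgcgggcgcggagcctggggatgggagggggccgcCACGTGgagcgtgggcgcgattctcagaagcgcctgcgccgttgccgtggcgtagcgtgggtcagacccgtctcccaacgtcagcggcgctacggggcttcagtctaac
Pycr1: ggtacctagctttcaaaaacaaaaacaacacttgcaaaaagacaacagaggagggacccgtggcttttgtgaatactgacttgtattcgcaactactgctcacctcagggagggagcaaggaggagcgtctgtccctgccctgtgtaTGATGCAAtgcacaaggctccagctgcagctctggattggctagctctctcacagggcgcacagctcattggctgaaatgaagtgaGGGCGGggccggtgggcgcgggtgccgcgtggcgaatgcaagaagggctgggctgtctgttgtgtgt

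Ass1 and Aldh18a1 each hold 1 E-box, which 7.15% of 32851 promoters of the same length hold. All 3 windows hold 1 GC box, found in 35.7% of promoters, and Pycr1 holds the 1 TGATGNAA match, found in 3.97%. The window of Oat, which was also called higher, is not printed and holds 2 GC boxes, 0 E-boxes and 0 TGATGNAA matches. The printed windows are thus a selection, from which no shared motif can be read. A match describes these letters only and is no measure of binding.

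Among polyamine genes 2 of 15 tested were called higher in asthma lungs and none lower, where 8.23% of all genes were called higher and 12.7% in all, a share close to that of the list. Srm, which encodes spermidine synthase, had 30.7, 23.2 and 22.2 CPM in BSYQF lungs, 55.0, 53.2 and 22.6 CPM in asthma lungs and 16.04, 18.9 and 17.8 CPM in control lungs. Its BSYQF and asthma libraries were all above the control libraries, and asthma replicate 3 was within the BSYQF range. Srm rose in asthma against control by 1.31 ± 0.29 (edgeR, adjusted p = 0.0234) and was at -0.78 ± 0.29 in BSYQF against asthma (adjusted p = 0.587). Eif5a, which encodes the translation factor that carries the spermidine-derived residue hypusine, rose in asthma against control by 0.93 ± 0.21 (edgeR, adjusted p = 0.0252). Its levels were 494, 445 and 358 CPM in BSYQF lungs, 661, 724 and 421 CPM in asthma lungs and 293, 320.5 and 337 CPM in control lungs. Beside them, 6 proliferation markers summed to 250.9, 117.8 and 191.1 CPM in BSYQF lungs, 215.2, 221.6 and 86.5 CPM in asthma lungs and 39.5, 30.9 and 40.05 CPM in control lungs, and 5 of the 6 were called higher in asthma against control. Their part in the polyamine results was not tested.

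Of 8 tested genes listed under nitric oxide signalling, 5 were called lower in asthma lungs and 1 higher, against 4.45% lower and 8.23% higher over all genes. The median log2 fold change of the 8 was -1.09. Gucy1a1 and Gucy1b1 encode the subunits of soluble guanylate cyclase, the receptor of nitric oxide. Gucy1a1 had 144, 128 and 198 CPM in BSYQF lungs, 114, 62.1 and 159 CPM in asthma lungs and 211, 313 and 240.1 CPM in control lungs, and fell in asthma against control by 1.19 on the log2 scale (SE 0.30, edgeR adjusted p = 0.0346). Gucy1b1 had 138, 145 and 165 CPM in BSYQF lungs, 107, 81.4 and 169 CPM in asthma lungs and 195, 270.0 and 244 CPM in control lungs, and was at -0.99 ± 0.24 in asthma against control (edgeR, adjusted p = 0.0305). For both subunits all BSYQF and all asthma libraries were below all control libraries, and the BSYQF and asthma libraries overlapped.

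The cGMP-dependent kinase genes Prkg1 (-1.51 ± 0.44, edgeR adjusted p = 0.0475) and Prkg2 (-1.21 ± 0.32, adjusted p = 0.0377) fell in asthma against control. Pde5a, which encodes the phosphodiesterase that breaks down cGMP, had 147, 141 and 178 CPM in BSYQF lungs, 159, 129.9 and 162 CPM in asthma lungs and 205, 319.7 and 265 CPM in control lungs, and fell there by 0.81 (SE 0.18, edgeR adjusted p = 0.0243). Its BSYQF and asthma libraries were alike in range and all below the control libraries, and in BSYQF against control it was at -0.76 ± 0.18 (edgeR, adjusted p = 0.0691). Gsr, which encodes glutathione reductase and not a step of the cGMP route, was the 1 gene of this list called higher in asthma (0.59 ± 0.14, edgeR adjusted p = 0.0286).

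Endothelium and smooth muscle, where nitric oxide signalling is known to act, were read from their markers. The 8 endothelial markers summed to 3119, 3205 and 3273 CPM in BSYQF lungs, 2596, 2159.8 and 3699.6 CPM in asthma lungs and 3355.5, 4869.6 and 4547 CPM in control lungs. Of the 8, 2 were called lower in asthma against control, where 4.45% of all genes were called lower. The 6 smooth muscle markers summed to 725.5 to 1103 CPM in BSYQF lungs, 928 to 1314 CPM in asthma lungs and 732 to 1121 CPM in control lungs, and 0 of 6 were called by edgeR. No marker of either list was at 0 in any library. The 6 alveolar type 1 cell markers summed to 3833, 4180.5 and 3690.3 CPM in BSYQF lungs, 3544, 2897 and 4744 CPM in asthma lungs and 5271, 5231.5 and 4909 CPM in control lungs. For this sum all BSYQF and asthma libraries were below all control libraries. Asthma replicate 2 was the lowest and asthma replicate 3 the highest of the asthma group. The same order held for the endothelial sum and for Gucy1a1 and Gucy1b1. On the first principal component of all tested genes, asthma replicate 2 (76.0) also lay furthest from the control libraries and asthma replicate 3 (1.77) nearest. The match in order is therefore not particular to these markers and genes. Pdpn was at 0 in 8 of the 9 libraries and was not tested. Of the 5 type 1 markers tested, 1 was called lower in asthma against control, Clic5 (-1.11 ± 0.31, edgeR adjusted p = 0.0423). Aqp5 was the 1 of the 5 above 0 there, at 0.30 ± 0.22. It was at -0.81 ± 0.23 in BSYQF against asthma, and was called in neither. In the adipocyte and cardiac muscle lists given beside Nos1, 5 of 6 markers each were also called lower in asthma against control. The part of all these cell types in the fall of the nitric oxide signalling genes was not tested.

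Of 11 tested genes that make the synthase cofactor tetrahydrobiopterin or bind the synthases, 2 were called higher and 1 lower in asthma against control, where 12.7% of all genes were called. Gch1, which encodes GTP cyclohydrolase 1, the first enzyme of cofactor synthesis, had 28.6, 25.6 and 21.3 CPM in BSYQF lungs, 26.0, 34.4 and 23.6 CPM in asthma lungs and 17.2, 13.7 and 19.6 CPM in control lungs. The control libraries were below all others, and Gch1 rose in asthma against control by 0.73 ± 0.20 (edgeR, adjusted p = 0.0440). Nostrin, whose product binds the endothelial synthase, had 42.9, 43.2 and 46.7 CPM in BSYQF lungs, 37.8, 38.6 and 47.9 CPM in asthma lungs and 49.0, 82.2 and 67.8 CPM in control lungs, and fell in asthma against control by 0.68 (SE 0.19, edgeR adjusted p = 0.0416). Highest asthma and lowest control library were close for Nostrin, without overlap.

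None of the 7 tested transport genes, the 2 tested arginine synthesis genes other than Ass1 and the 7 tested methylarginine genes was called by edgeR in any comparison. Over all genes 12.7% were called in asthma against control, 1.67% in BSYQF against control and 0.00678% in BSYQF against asthma. A lack of calls therefore sets these small lists little apart from all genes. In asthma against control the smallest p-values of the last groups were those of Nags, the N-acetylglutamate synthase gene (2.27 ± 1.01, adjusted p = 0.140), and of Prmt1, which encodes the main arginine methyltransferase (0.56 ± 0.17, adjusted p = 0.0563).

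**Figure D5:**
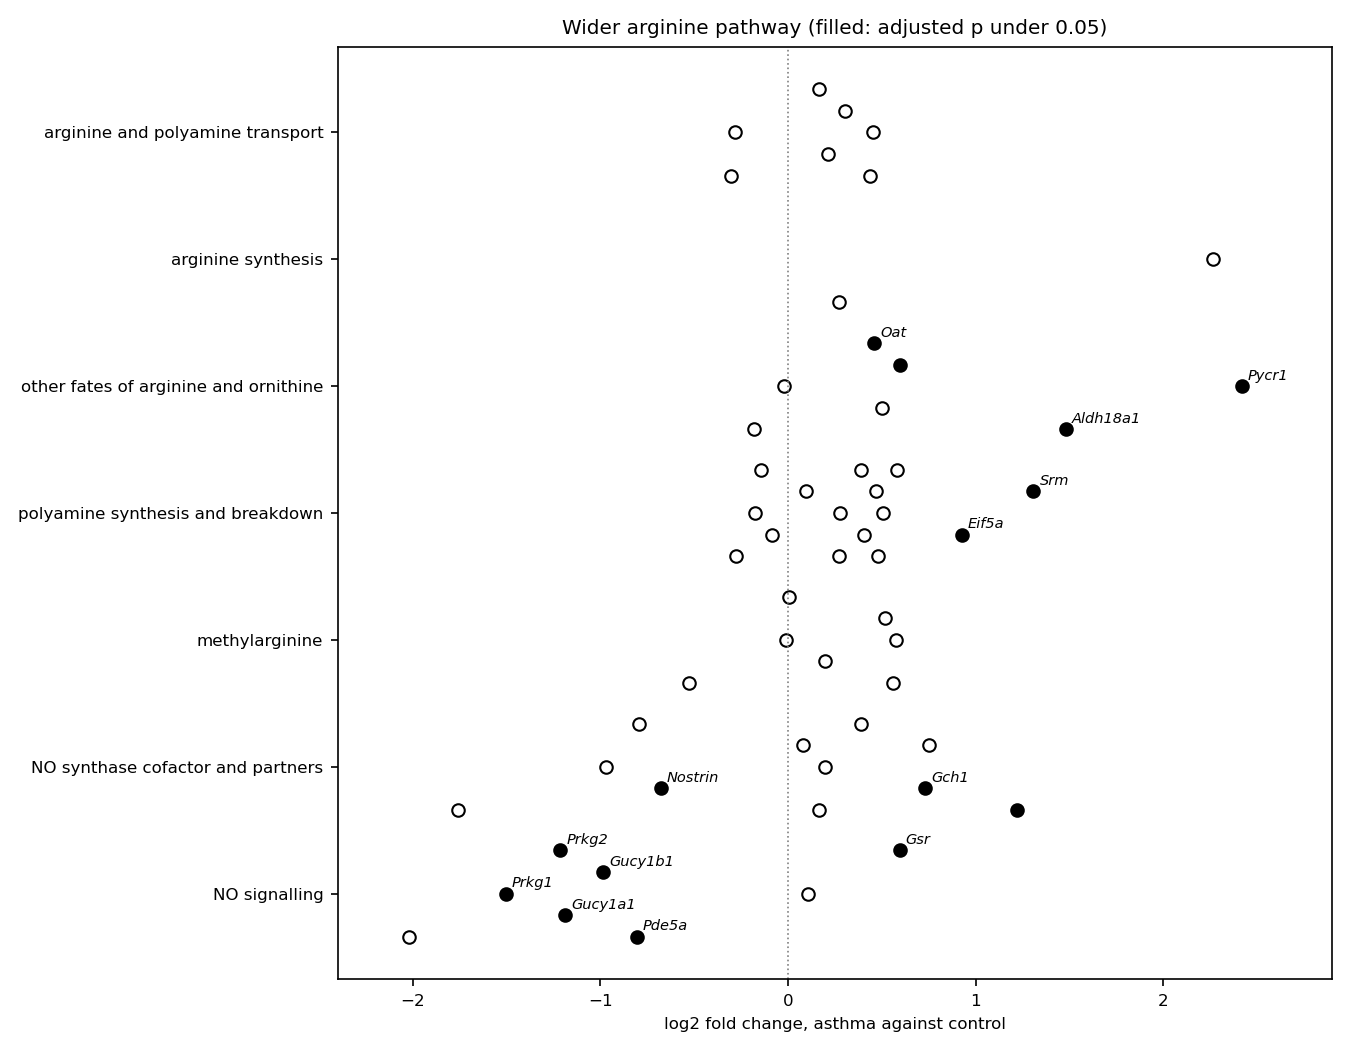
Log2 fold change in asthma against control of the 57 tested genes of the wider list, 1 point per gene, in 1 row per role, with filled points at an adjusted p under 0.05 and names beside those described in the text. The 4 filled genes of ornithine and proline metabolism and the 2 of polyamine metabolism lie right of 0, from 0.46 for Oat to 2.42 for Pycr1, and 5 of the 6 filled genes of nitric oxide signalling lie left of it, from -1.51 for Prkg1 to -0.81 for Pde5a.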

How the data were processed

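Lung total RNA was isolated with Trizol, 3 µg per library went into NEBNext Ultra libraries, and FastQC, cutadapt, STAR, HTSeq and DESeq2 with the build mm10 are named, without versions, per the labels' protocols and the submitters' processing notes. Neither the annotation nor the strandedness of the counting is stated there. The table that the authors deposited holds raw whole-number counts, and 3 further deposited tables hold the authors' log2 fold change, p-value and adjusted p-value for each listed gene. These deposited log2 fold changes and p-values are quoted only as the authors' own, and 36 further columns of values per library in those tables were not used.

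After filterByExpr and TMM scaling (factors 0.914 to 1.07), 1 model of the 3 groups was fitted by the robust quasi-likelihood method of edgeR 4.0.16 (R 4.3.3; glmQLFit and glmQLFTest), with Benjamini-Hochberg adjustment over 14739 genes and a biological coefficient of variation of 0.244. The SE is the size of the log2 fold change divided by the square root of F. CPM are counts over the TMM-scaled library total, and CPM per kb divide these by the union of exons in GENCODE vM21 (GRCm38). The code was tested on simulated data. Alternatives were DESeq2 1.42.0, limma voom 3.58.1, other size factors and filters, the 2 groups compared alone, another quasi-dispersion method, a replicate block and leaving out each library. Both the spread between the 3 libraries of a group and, for genes with few counts such as Nos1, the depth limit the precision.

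The 10 genes, the wider list of 66 genes and the marker lists were chosen with earlier results of these data known. All 10 genes are named, with the called genes of the wider list, the gene with the smallest p-value of some of its roles, and genes most like each tested gene (Pearson r of log2 CPM with a prior count of 2, unnamed gene models left out). Some genes of these counts are not reported here by name. Asl, which is outside this rule, was named after its values were seen.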

Additional observations from a re-analysis of the deposited data

How the results depend on the processing

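In asthma against control, limma voom called 1 of the 9 genes, Ass1, where edgeR called 3, and 8 of the wider list, where edgeR called 15; Arg1 had an adjusted p of 0.0509 and Slc7a2 one of 0.0511 with limma voom. DESeq2 called 3263 genes in all against 1869. In BSYQF against asthma, where edgeR called 1 gene of all, DESeq2 called 122, limma voom 0 and the fit of only the 2 groups 0. In BSYQF against control, where edgeR called 246 genes of all, DESeq2 called 806, limma voom 90 and the fit of only the 2 groups 389. DESeq2 called 1 of the 9 genes there, Arg1, and 2 of the wider list, and the fit of only the 2 groups called 1 of the wider list, Aldh18a1. The cause of these differences was not tested.

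Leaving out each library in turn gave 0 to 3 of the 9 genes, 0 to 28 of the wider list and 171 to 4262 genes of all called in asthma against control. In BSYQF against asthma it gave 0 to 0, 0 to 1 and 0 to 114, and in BSYQF against control 0 to 0, 0 to 2 and 9 to 563. Such fits rest on fewer libraries. The log2 fold changes over these fits ran from 5.53 to 6.42 for Arg1, 0.75 to 1.12 for Ass1 and 0.50 to 0.83 for Slc7a2 in asthma against control, with adjusted p-values over all 17 alternatives of 1.3e-06 to 0.0883, 0.0012 to 0.0967 and 0.0126 to 0.169. Arg1 ran from -3.41 to -1.35 in BSYQF against asthma and from 2.55 to 4.62 in BSYQF against control, and Ddah1 from -0.96 to -0.58 in BSYQF against asthma.

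Signs turned for uncalled genes near 0. In asthma against control these were Ddah2 (0.0165 with limma voom, -0.15 to 0.13 without 1 library) and Nos2 (-0.22 to 0.75). In BSYQF against asthma they were Nos3 (-0.0185 to 0.12), Slc7a2 (-0.33 to 0.0334), Nos2 (-0.37 to 0.61) and Ddah2 (-0.47 to 0.0540), and in BSYQF against control Odc1 (-0.0687 to 0.24) and Ddah2 (-0.49 to 0.0517). Of the values of the 9 genes over all alternatives, 130 kept their direction and side of the threshold in asthma against control, 147 in BSYQF against asthma and 148 in BSYQF against control. These include uncalled genes that stayed uncalled. In asthma against control 18 values lost their call, all of Slc7a2, Ass1 or Arg1, and 5 turned sign. In BSYQF against asthma 6 turned sign, and in BSYQF against control 3 turned sign and 2 gained a call.

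The labels number the libraries 1 to 3 in each group without saying that a number links them. Deviations from the group means correlated at -0.26 to 0.34 for same-numbered libraries and at -0.43 to 0.37 for differently numbered ones. With 3 libraries per group these values cannot settle a pairing. The numbers were not taken to pair the libraries, since the labels state no pairing. With a replicate block 3 of the 9 genes were called in asthma against control, 0 in BSYQF against asthma and 1, Arg1, in BSYQF against control (3.77, adjusted p = 0.00888), and 1469, 15 and 237 genes of all.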
